A study of Mus musculus with 6 samples.

Results

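Phospholipases A2 and the enzymes that turn arachidonic acid into prostaglandins were followed in mouse brown adipocytes given rotenone or its solvent. The genes were taken by symbol and numbered 10 of the 26214 genes listed: the phospholipases Pla2g4a, Pla2g4b, Pla2g6 and Pla2g15, the cyclooxygenases Ptgs1 and Ptgs2, the prostacyclin synthase Ptgis, and the prostaglandin E synthases Ptges, Ptges2 and Ptges3. All 10 had enough counts to be tested. Of these, 6 rose with rotenone, led by Ptgs1, Ptgis and Pla2g4a, which were each more than 2-fold higher, 1 fell (Pla2g4b), and 3 did not pass the test (Pla2g15, Ptgs2 and Ptges). Of all genes tested, 27.6% were called higher and 28.5% lower, 56.1% in all.

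Both groups came from an immortalized line of mouse brown preadipocytes. Differentiation was induced for 3 days with a medium holding 0.125 mM indomethacin, itself an inhibitor of cyclooxygenases, beside 500 nM dexamethasone, 0.5 mM IBMX, 20 nM insulin and 1 nM T3, and went on for 4 days with insulin and T3 alone. The day 7 cells then received either 100 nM rotenone, which blocks complex I of the respiratory chain, or DMSO, and RNA was collected after 16 h. Each group had 3 deposited files, but the 3 rotenone files held the same counts for every gene and were used as 1 library, so the spread between replicates came from the 3 DMSO libraries only. Nothing in the labels says whether the DMSO libraries came from separate cultures, so the spread behind every p-value below is that of these libraries and may be only technical.

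Phospholipases A2 cut the fatty acid from the middle position of a phospholipid, and the cytosolic enzyme encoded by Pla2g4a prefers arachidonic acid. Cyclooxygenases convert free arachidonic acid to prostaglandin H2, from which separate terminal synthases make prostaglandin E2, prostacyclin and other prostanoids. In fat cells, prostaglandin E2 acts on lipolysis through a receptor that lowers cAMP, prostacyclin promotes the differentiation of precursor cells, and arachidonic acid and its products can bind PPAR receptors. The study's title names a route from oxidative phosphorylation through arachidonic acid to PPAR, and the comparison bears on the transcripts of that route, not on enzyme activity or on lipid levels.

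The start regions of the genes were read from RefSeq (GRCm38.p6), where 8 of the 10 genes had an entry and Pla2g4b and Ptgis had none. They were searched on both strands for ACGTG, the core that HIF and E-box factors share, for TGACG, one side of a cAMP response element, and for TATAAA. The 150 bases before the start are shown for 5 genes. Pla2g4a and Ptgs1 are shown as rising genes, Ptgs2 as the cyclooxygenase that did not pass, and Pla2g6 and Ptges2 because they hold a match. A further stretch of 24 bases just after the Ptgs2 start is shown because its matches lie there. Capitals mark every base of a match, and each line runs 5′ to 3′ on the strand of the gene.
Pla2g4a, chr1:149961291-149961440, minus strand: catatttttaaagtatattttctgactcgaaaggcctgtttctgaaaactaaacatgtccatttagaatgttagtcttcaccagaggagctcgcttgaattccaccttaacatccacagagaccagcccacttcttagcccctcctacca
Pla2g6, chr15:79328372-79328521, minus strand: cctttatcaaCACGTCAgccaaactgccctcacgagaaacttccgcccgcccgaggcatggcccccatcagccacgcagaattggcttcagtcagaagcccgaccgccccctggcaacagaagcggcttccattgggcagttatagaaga
Ptgs1, chr2:36230276-36230425, plus strand: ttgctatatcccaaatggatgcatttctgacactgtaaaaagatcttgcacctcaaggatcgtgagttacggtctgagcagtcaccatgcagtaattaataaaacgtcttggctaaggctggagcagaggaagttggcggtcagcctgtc
Ptgs2, chr1:150099881-150100030, plus strand: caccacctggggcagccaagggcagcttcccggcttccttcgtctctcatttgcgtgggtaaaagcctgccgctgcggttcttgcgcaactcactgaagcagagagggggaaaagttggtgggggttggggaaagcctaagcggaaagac
Ptgs2, chr1:150100037-150100060, plus strand: accactaCGTCACGTGgagtccgc
Ptges2, chr2:32395740-32395889, plus strand: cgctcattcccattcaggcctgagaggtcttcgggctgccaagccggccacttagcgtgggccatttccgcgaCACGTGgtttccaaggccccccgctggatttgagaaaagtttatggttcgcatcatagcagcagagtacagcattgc
In the 250 bases before the start, ACGTG was found in Pla2g6 and Ptges2 and TGACG in Pla2g6. Among all 32851 windows of that kind in the table, 16.6% held ACGTG, 17.8% TGACG and 12.4% TATAAA. In Pla2g6 the ACGTG match, 140 to 136 bases before the start on the opposite strand, overlaps a TGACG match at 138 to 134. In Ptges2 the letters read the same on both strands as CACGTG, so the 2 ACGTG matches there are 1 site, 77 to 72 bases before the start. The Ptgs2 window held none of the 3 motifs before the start. After it, TGACG on the opposite strand at bases 14 to 18 runs into ACGTG on both strands at bases 17 to 22. Ptges3 also held TGACG after its start, on the opposite strand at bases 12 to 16. With the 50 bases after the start included, 19.6% of all windows held ACGTG and 20.8% TGACG. No motif was found within 250 bases before the Ptgs1 start, or before the first Pla2g4a start; TATAAA lies at 200 to 195 bases before a second annotated Pla2g4a start. These are matches of letters, and binding was not measured.

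Total counts ran from 26085061 to 29194179 in the DMSO libraries and came to 21611589 in the rotenone library, where 3 counts correspond to 0.148 CPM (the usual depth-scaled count, here on library sizes scaled by TMM). Across all 14709 genes tested, edgeR called 4054 (27.6%) as higher and 4197 (28.5%) as lower in the rotenone library at an adjusted p under 0.05. With scaling by library size only, the counts were 3245 and 5150, and the median over all genes was -0.16 in place of -0.04 on the log2 scale. Against that background 6 of the 10 genes were higher and 1 was lower, and their median log2 fold change was 0.49. A single rotenone library gives no measure of how rotenone-treated cultures vary. A spread of 20% was also assumed, as a coefficient of variation for every gene. It stood in place of the 6.9% estimated from the DMSO libraries. With it, 3 of the 10 genes were higher (Ptgs1, Ptgis and Pla2g4a) and 1 was lower (Pla2g4b). Of all 14709 genes tested, 1408 were higher and 2063 lower at that spread. The rotenone value lay above every DMSO value for 8 genes and below every DMSO value for 2, but this held for 41.5% and 44.7% of all genes tested and is no mark of these genes.

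**Figure D1:**
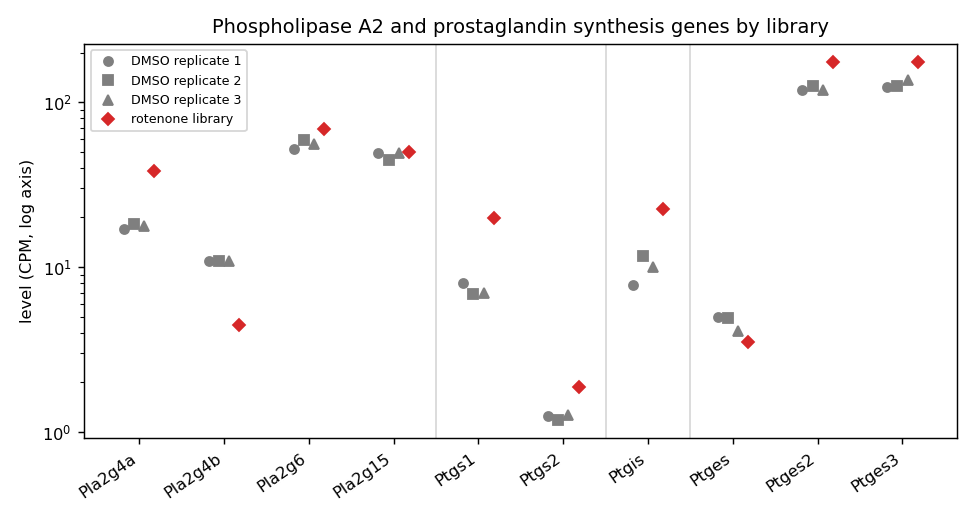
Level of each gene (CPM on a log axis) in the 3 DMSO libraries (grey) and the 1 rotenone library (red); vertical lines part phospholipases, cyclooxygenases, prostacyclin synthase and prostaglandin E synthases. Ptgs1, Ptgis and Pla2g4a sit well above their DMSO values, Pla2g4b sits at 4.48 CPM against 10.8 CPM, and Pla2g15 is level with DMSO.

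Among the phospholipases, Pla2g4a and Pla2g4b, both of the cytosolic group IV family, moved in opposite directions. Pla2g4a (chromosome 1, 149829618 to 149961290, GRCm38, minus strand) encodes the calcium-dependent enzyme that supplies arachidonic acid in many cell types. Its level was 16.9, 18.3 and 17.8 CPM in DMSO replicates 1, 2 and 3 and 38.4 CPM in the rotenone library. The DMSO libraries lay close together and the rotenone library lay far above them. Pla2g4a rose 2.17-fold, a log2 fold change of 1.12 ± 0.12 (SE; edgeR adjusted p = 1.39e-07).

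Pla2g4b (chromosome 2, 120033417 to 120043030, plus strand) encodes a second calcium-dependent enzyme of the family. It stood at 10.8 CPM in each DMSO library and at 4.48 CPM with rotenone, from 321, 313 and 289 counts against 91. It was the only gene of the 10 that fell, by 1.27 ± 0.21 on the log2 scale (edgeR adjusted p = 3.43e-05). The ratio of Pla2g4a to Pla2g4b counts, which does not depend on the scaling, was 1.56, 1.69 and 1.65 in DMSO and 8.56 with rotenone.

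The Pla2g4b counts need care, because other annotated genes cover the same bases. Gm28042, a readthrough gene that spans the upstream gene Jmjd7 and Pla2g4b, shares 66.5% of the exonic bases of Pla2g4b, and Sptbn5 covers 13.6% on the opposite strand. The sources used here do not say whether counting used strand. In every library the Gm28042 count was nearly the sum of the Jmjd7 and Pla2g4b counts: 651 against 674, 665 against 673, and 571 against 587 in DMSO, and 336 against 339 with rotenone. The share of that sum thus lay between 96.6% and 99.1%. Jmjd7, a lysyl hydroxylase gene named after its values were seen, had a log2 fold change of 0.04 ± 0.17 (edgeR adjusted p = 0.837), and the ratio of Pla2g4b to Jmjd7 counts went from 0.909, 0.869 and 0.97 in DMSO to 0.367. Sptbn5, a spectrin gene, fell from 452, 430 and 419 counts to 96, a log2 fold change of -1.69 ± 0.19. Reads of Pla2g4b and of Sptbn5 in the shared stretch cannot be told apart in these counts.

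**Figure D2:**
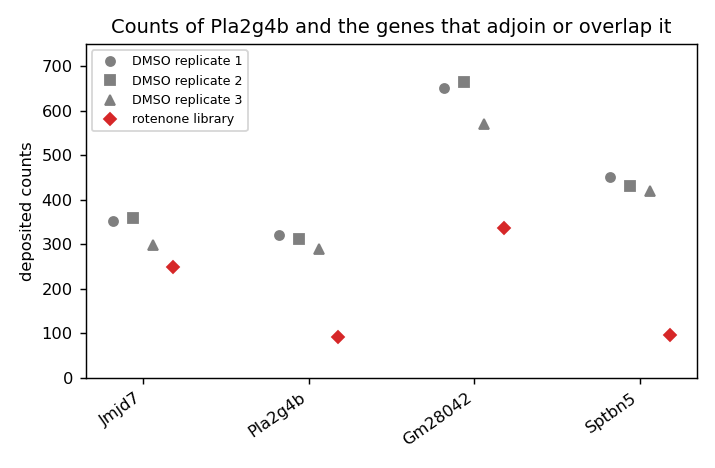
Deposited counts of Pla2g4b, its upstream neighbour Jmjd7, the readthrough gene Gm28042 and the opposite-strand gene Sptbn5 in the 3 DMSO libraries (grey) and the rotenone library (red), not scaled for depth. Pla2g4b and Sptbn5 are far lower with rotenone (91 and 96 counts), and Gm28042 is near the sum of Jmjd7 and Pla2g4b in each library.

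The phospholipases that need no calcium or act in lysosomes differed less. Pla2g6 encodes the calcium-independent enzyme of phospholipid remodelling. Its level was 52.1, 59.1 and 55.8 CPM in DMSO and 69.2 CPM with rotenone, so the single rotenone value was above all DMSO values but near their range. Pla2g6 rose by 0.31 ± 0.09 on the log2 scale (edgeR adjusted p = 0.00556), a call that was lost with scaling by library size only (0.19, adjusted p = 0.0778) and at the assumed 20% spread (adjusted p = 0.536). Pla2g15, the lysosomal enzyme, gave 49.3, 44.6 and 49.6 CPM in DMSO and 50.1 CPM with rotenone. Its log2 fold change of 0.07 ± 0.10 did not pass (edgeR adjusted p = 0.578), its 95% interval ran from -0.14 to 0.27, and its sign turned with scaling by library size only (-0.055).

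Of the cyclooxygenases, the constitutive form Ptgs1 rose and the inducible form Ptgs2 did not pass the test. Ptgs1 (chromosome 2, 36230426 to 36252272, plus strand) stood at 8.04, 6.82 and 6.92 CPM in DMSO and at 19.8 CPM with rotenone. The rotenone value was more than 2-fold above each DMSO value. Ptgs1 rose 2.72-fold, a log2 fold change of 1.44 ± 0.17 (edgeR adjusted p = 6.37e-07), which was the largest rise among the 10 genes. Gm43621, annotated on the other strand, covers 3.81% of its exonic bases.

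Ptgs2 (chromosome 1, 150100031 to 150108227, plus strand) was barely expressed, with 37, 34 and 34 counts in DMSO and 38 with rotenone, or 1.25, 1.18 and 1.27 CPM against 1.87 CPM. The counting interval of the rotenone value was 1.33 to 2.57 CPM. Its log2 fold change was 0.60 ± 0.45 (edgeR adjusted p = 0.271). The 95% interval from edgeR, -0.35 to 1.55, held both no change and a change of the size seen for Ptgs1. Whether Ptgs1 and Ptgs2 changed by different amounts was not tested. Ptgs2 and Pla2g4a are neighbours on chromosome 1, with their starts 139 kb apart and their transcription running in opposite directions away from each other. The ratio of Ptgs1 to Ptgs2 counts was 6.43, 5.79 and 5.44 in DMSO and 10.6 with rotenone.

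Among the terminal synthases the prostacyclin synthase gave the largest rise. Ptgis (chromosome 2, 167191805 to 167240604, minus strand), which makes prostacyclin from prostaglandin H2, had 7.77, 11.7 and 10.1 CPM in DMSO and 22.7 CPM with rotenone. The DMSO libraries varied more for this gene than for any of the other 9, with a coefficient of variation of 19.9%, and the rotenone value lay well above the highest of them. Ptgis rose 2.31-fold, a log2 fold change of 1.21 ± 0.18 (edgeR adjusted p = 1.53e-05), and the value ran from 1.06 to 1.35 over 11 alternative settings. A transcript on the other strand, 1110018N20Rik, covers 6.08% of its exonic bases and is not listed in the count files.

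Ptges, the membrane-bound synthase that is coupled to Ptgs2 in inflamed tissue, was the least expressed of the prostaglandin E synthases. It had 5.00, 4.91 and 4.08 CPM in DMSO and 3.5 CPM with rotenone, from 71 counts. The log2 fold change of -0.42 ± 0.27 did not pass (edgeR adjusted p = 0.207; 95% interval -0.99 to 0.16). The ratio of Ptgis to Ptges counts was 1.55, 2.37 and 2.47 in DMSO and 6.48 with rotenone.

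Ptges2 and Ptges3 were the most abundant of the 10 genes in counts and rose by similar, modest amounts. Ptges2, a synthase of the Golgi and cytosol, had 118, 126 and 119 CPM in DMSO and 176 CPM with rotenone, a log2 fold change of 0.54 ± 0.07 (edgeR adjusted p = 2.55e-06). Ptges3 is better known as p23, a co-chaperone of HSP90 that was also described as the cytosolic synthase. It had 124, 126 and 136 CPM in DMSO and 176 CPM with rotenone, a log2 fold change of 0.45 ± 0.07 (edgeR adjusted p = 3.09e-05). At the assumed 20% spread neither call was kept (adjusted p = 0.231 for Ptges2 and 0.34 for Ptges3). The ratio of their counts, 0.95, 1.00 and 0.873 in DMSO, was 1.00 with rotenone, inside the DMSO range.

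**Figure D3:**
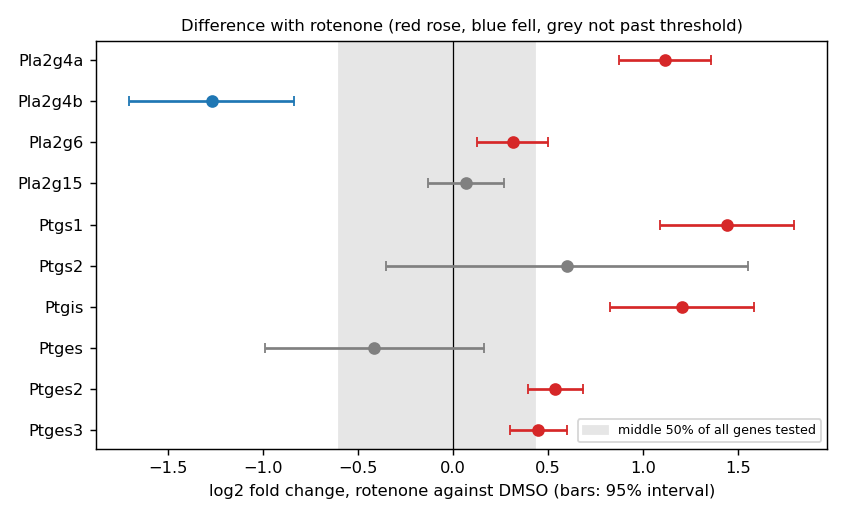
Log2 fold change of each gene, rotenone against DMSO, with its 95% interval from edgeR (red rose, blue fell, grey did not pass); the band spans the middle 50% of all genes tested, from -0.60 to 0.43. Intervals of Pla2g4a, Ptgs1 and Ptgis lie wholly above the band and that of Pla2g4b wholly below it.

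**Figure D4:**
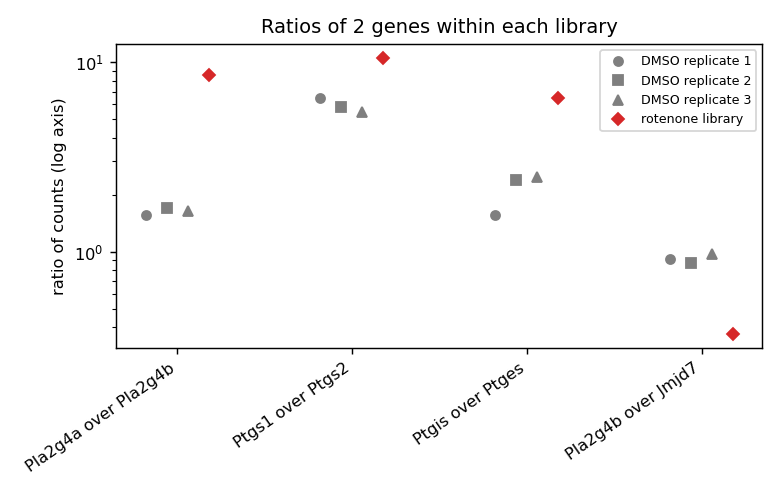
Ratios of the counts of 2 genes within each library, on a log axis, for 3 DMSO libraries (grey) and the rotenone library (red); a ratio within a library does not depend on scaling. Pla2g4a over Pla2g4b moves furthest, from a mean of 1.64 in DMSO to 8.56.

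Levels of different genes were compared per kilobase of the longest annotated transcript. In DMSO the order was Ptges3 (64.4 CPM per kb), Ptges2 (24.3), Pla2g15 (17.7), Pla2g6 (16.5), Pla2g4a (5.13), Ptgis (4.67), Pla2g4b (2.55), Ptgs1 (2.53), Ptges (1.28) and Ptgs2 (0.277), all in CPM per kb. The DMSO values overlapped within 3 pairs of neighbours in this order, Pla2g15 with Pla2g6, Pla2g4a with Ptgis, and Pla2g4b with Ptgs1. Ptgs2 lay at the 8.54th percentile of all genes tested and Ptges3 at the 92.8th. With rotenone, Pla2g4b dropped to 1.06 CPM per kb, while Ptgs1 reached 6.89 CPM per kb. Pla2g4a took 11.9%, 12.7% and 12.1% of the summed per-kilobase level of the 4 phospholipases in DMSO and 21.7% with rotenone. Ptgs1 took 90.9%, 90.0% and 89.4% of that of the cyclooxygenases in DMSO and 94.3% with rotenone. By transcript length, median log2 fold changes over all genes ran from 0.24 in the decile of shortest transcripts to -0.27 in that of the longest, and from -0.10 to 0.12 in the deciles that hold the 10 genes; the part of length in the results was not tested.

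Markers of cell state moved in the same comparison. Of 14 tested preadipocyte and fibroblast markers, 9 rose and 1 fell (median log2 fold change 0.93), and their summed level went from between 3183 and 3455 CPM in DMSO to 6364 CPM. Most of that sum was Col1a1, Col1a2 and Vim in every library. The marker that fell was Pdgfra, by 1.11 ± 0.16. Of 10 fat cell markers, 1 rose and 7 fell (median -0.54). Cebpa, an adipogenic transcription factor, fell by 2.31 ± 0.08 and the lipase gene Lipe fell by 1.88 ± 0.07. The marker that rose was Lpl, by 0.53 ± 0.07, and Fabp4 (0.05 ± 0.07) and Cidea (-0.06 ± 0.08) did not pass. Pdgfra, Col1a2, Vim, Lpl, Fabp4 and Cidea were named after their values were seen. At the assumed 20% spread, 3 fat cell markers were lower and 0 higher. The summed level of the fat cell markers was 12230 to 13380 CPM in DMSO and 11650 CPM with rotenone. In such bulk libraries a change in the share of a cell type and a change in RNA per cell cannot be told apart, and their part in the rises of Ptgs1, Ptgis and Pla2g4a was not tested. Macrophages and endothelial cells, which also make prostanoids, were checked by their markers. The macrophage genes Adgre1, Mrc1 and Ptprc had 0 counts in all libraries, as did the endothelial gene Tie1; these 4 were named after their values were seen. Of 2 tested macrophage markers Cd68, a lysosomal protein, rose to 15.5 CPM with rotenone against 2.98 ± 0.66 CPM (SD, n = 3). The summed level of all 8 macrophage markers went from between 4.05 and 4.45 CPM to 16.7 CPM, nearly all of it Cd68 with rotenone. Cd14, the other tested marker, did not pass (log2 fold change -0.06 ± 0.60). Csf1r and Itgam had 0 counts with rotenone, and Lyz2 had 9, 0 and 3 counts in DMSO and 4 with rotenone. Cd14, Csf1r, Itgam and Lyz2 were named after their values were seen. Of 3 tested endothelial markers 2 rose, Eng and Egfl7, and the sum of the 8 went from between 6.64 and 7.71 CPM to 13.3 CPM. Most of that sum was Egfl7 and Eng in every library. Pecam1, the other tested marker, did not pass (log2 fold change 0.37 ± 1.00). Cdh5 had 0, 1 and 0 counts in DMSO and 0 with rotenone, Vwf 1, 1 and 7 against 1, Tek 4, 4 and 0 against 4, and Kdr 1, 0 and 0 against 9. These 5 were named after their values were seen. The part of macrophages or endothelial cells in the results was not tested. Egfl7 did not pass with scaling by library size only, with DESeq2 or at the assumed 20% spread.

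Around the 10 genes, 10 further lists of the pathway held 114 genes, of which 85 could be tested. In all, 15 of them rose (17.6%) and 30 fell (35.3%), with a median log2 fold change of -0.12, beside 27.6% and 28.5% of all genes. Changes given below for these lists are log2 fold changes with their SE, past edgeR's threshold unless said otherwise. At the assumed 20% spread, 10 of the 85 were higher and 13 lower, beside 1408 and 2063 of all 14709 genes tested. Among the pathway genes called at that spread were Ptgds, Pla2g4c and Ptger2, low-count genes that edgeR's main test did not call. For them this setting, which also uses a likelihood ratio test in place of the F test, was the laxer one, not the stricter. Pla2g4c was named after its values were seen.

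Other phospholipases A2 and the PLA2 receptor gave 2 rises and 4 falls among 11 tested. Pla2r1, the receptor for secreted forms, rose by 1.48 ± 0.44 on the log2 scale. Pla2g4f, of the same cytosolic family as Pla2g4a, fell by 2.18 ± 0.71 from 1.35 ± 0.32 CPM (SD, n = 3), and Pafah1b3, a subunit of the enzyme that breaks down platelet-activating factor, fell by 1.27 ± 0.12. Pla2g4f met the count filter only through the DMSO libraries, where it was high. The other genes of the list that passed were chosen for mention after their values were seen. The secreted form Pla2g2e had 9.35 ± 0.27 CPM (SD, n = 3) in DMSO and 21.1 CPM with rotenone and rose by 1.17 ± 0.15. Pafah2 fell by 1.09 ± 0.12. Plaat3, known as the adipose phospholipase A2 (AdPLA), had 484 ± 22 CPM (SD, n = 3) in DMSO and 393 CPM with rotenone. It fell by 0.30 ± 0.07, a call lost at the assumed 20% spread (adjusted p = 0.571). Of this list 7 genes had 0 counts in every library.

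Of 6 tested synthases of other prostanoids 1 rose and 1 fell. Akr1b3, an aldose reductase that can make prostaglandin F2 alpha, reached 140.4 CPM with rotenone against 59.7 ± 3.2 CPM (SD, n = 3) and rose by 1.23 ± 0.08. Cbr1, a carbonyl reductase that converts prostaglandin E2 to F2 alpha, fell by 0.65 ± 0.07, a call lost at the assumed 20% spread (adjusted p = 0.171). The D synthases Ptgds and Hpgds were below 1 CPM in each library and did not pass. They were named after their values were seen. Ptgds had 12, 4 and 6 counts in DMSO and 15 with rotenone. Its DMSO coefficient of variation was 53.2%, counting error included, while the assumed 20% leaves counting error out. The assumed 20% was not the stricter setting for this gene. At the assumed 20% spread 2 genes of this list were higher, Akr1b3 and Ptgds (adjusted p = 0.047 for Ptgds), and 0 were lower.

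Among prostanoid receptors 2 of 9 tested fell and 0 rose by edgeR's test; at the assumed 20% spread 3 were lower and 0 higher. The gene added at 20% was Ptger2, named after its values were seen, with 5, 14 and 4 counts in DMSO and 0 with rotenone. Its DMSO coefficient of variation was 70.2%, counting error included, while the assumed 20% leaves counting error out. The assumed 20% was not the stricter setting for this gene. Ptger1, a receptor for prostaglandin E2, had 723, 710 and 536 counts in DMSO and 151 with rotenone, a log2 fold change of -1.63 ± 0.17. Ptgfr, the receptor for prostaglandin F2 alpha, had 52, 34 and 30 counts in DMSO and 0 with rotenone. The Ptgfr mean in DMSO was 9.15-fold above a floor of 3 counts in the rotenone library. This bound leaves out the spread of the DMSO libraries (1.76, 1.18 and 1.12 CPM). Ptger3, the receptor that lowers cAMP in fat cells, was near the limit of detection with 11, 4 and 0 counts in DMSO and 1 with rotenone, and the prostacyclin receptor gene Ptgir had 26, 78 and 35 counts in DMSO and 30 with rotenone; both were named after their values were seen. The median log2 fold change of the list was -1.42, or -1.22 with the genes at 0 counts set to their bound. Ptger2, Ptger3 and Ptgdr2 (6, 19 and 5 counts in DMSO and 3 with rotenone) met the count filter only through a DMSO library where they were high. Ptgfr and Tbxa2r met it only through the DMSO libraries. The filter thus favoured falls in this list, and neither median allows for that. Ptgdr2 and Tbxa2r were named after their values were seen.

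All 5 tested genes of prostaglandin transport and breakdown passed, 1 higher and 4 lower. Slco2a1, the transporter that brings prostaglandins into cells, rose by 1.30 ± 0.29 and reached 6.70 CPM against 2.72 ± 0.69 CPM (SD, n = 3). Ptgr2, a reductase of 15-keto prostaglandin E2, fell by 0.59 ± 0.07, and Cbr3, a carbonyl reductase, fell by 0.56 ± 0.11. None of the 4 falls was called at the assumed 20% spread. Hpgd, the dehydrogenase that starts prostaglandin breakdown, had at most 6 counts in any library and could not be tested; it was named after its values were seen.

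Other fates of arachidonic acid were mixed. Of 4 tested lipoxygenase and leukotriene genes, Gpx4, a peroxidase of lipid hydroperoxides, rose by 0.27 ± 0.06, a call lost with scaling by library size only and at the assumed 20% spread, and the other 3 did not pass. Of 7 tested epoxygenase and epoxide hydrolase genes 1 rose and 3 fell; at the assumed 20% spread 1 was lower. Cyp2c23, an epoxygenase, rose by 0.87 ± 0.17. Ephx1, the microsomal epoxide hydrolase, fell by 1.10 ± 0.08, and Cyp4f13 fell by 0.36 ± 0.13, a call lost with DESeq2 and at the assumed 20% spread.

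Genes that activate arachidonic acid or return it to phospholipid gave 4 rises and 4 falls among 14 tested (2 and 1 at the assumed 20% spread). Lpcat4, a lysophospholipid acyltransferase, was at 0.93 ± 0.14 CPM (SD, n = 3) in DMSO and 3.84 CPM with rotenone and rose by 2.04 ± 0.40. Acsl5, an acyl-CoA synthetase, rose by 0.97 ± 0.09, and Mboat2, another acyltransferase, fell by 1.67 ± 0.21. Along the diacylglycerol and endocannabinoid routes 4 of 14 tested rose and 5 fell (1 and 2 at the assumed 20% spread). Dagla, which makes the endocannabinoid 2-arachidonoylglycerol from diacylglycerol, fell by 1.14 ± 0.14, and the phospholipase C gene Plcd1 fell by 1.47 ± 0.15. Plcg2 rose from 2, 1 and 3 counts to 15, a ratio of 10.5 with a counting interval of 3.85 to 33.0, and did not pass with DESeq2. It met the count filter only through the rotenone library, where it was high. The filter thus favoured its rise, and the counting interval does not allow for that.

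Of 12 kinases, annexins and partners of the cytosolic enzyme, 1 rose and 4 fell, with 7 falls under scaling by library size only and 1 fall at the assumed 20% spread. Anxa1, an annexin that inhibits cytosolic phospholipase A2, went from 117 ± 10 CPM (SD, n = 3) to 217 CPM and rose by 0.89 ± 0.08. Mapk14, the kinase p38 alpha, fell by 1.19 ± 0.09, and Anxa2 fell by 0.54 ± 0.07, a call lost at the assumed 20% spread. The PPAR receptors at the end of the route all fell: Ppara fell by 1.46 ± 0.08, Ppard fell by 0.72 ± 0.08 and Pparg fell by 0.65 ± 0.07, with Ppard and Pparg not called at the assumed 20% spread.

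**Figure D5:**
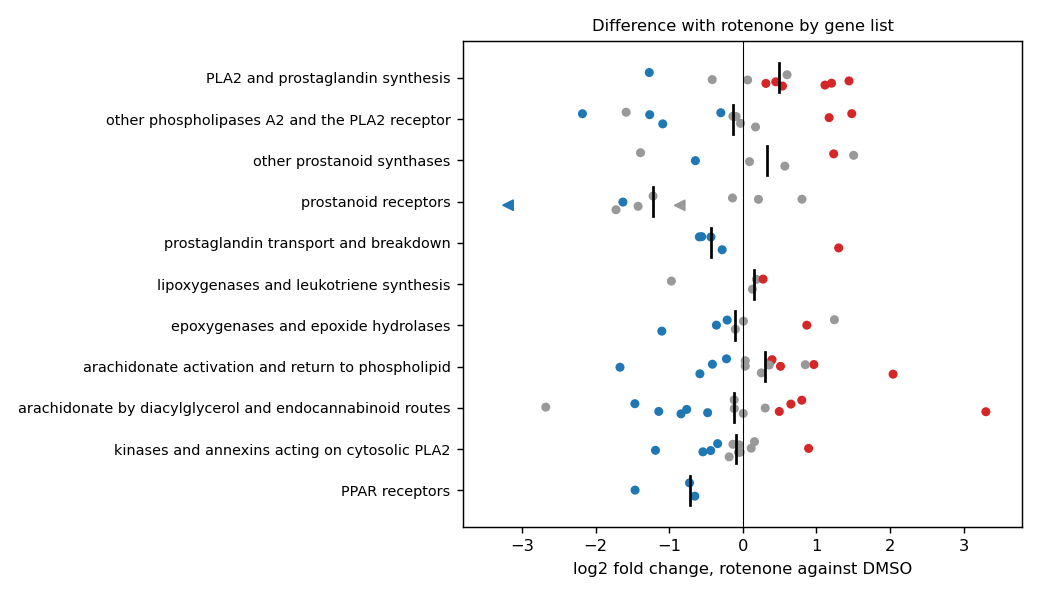
Log2 fold change of each tested gene, rotenone against DMSO, in the 10 genes (top line) and 10 further lists of the pathway; red rose, blue fell, grey did not pass, arrowheads are genes with 0 counts with rotenone drawn at their bound, and bars are medians. The median is 0.49 for the top line, -0.43 for transport and breakdown and -0.73 for the PPAR receptors.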

How the data were processed

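RNA-seq covered 3 DMSO libraries and 1 rotenone library (3 files with 0 differing genes); every pair of DMSO files differed. The deposited values are raw counts, 1 per gene symbol and library; per the submitters' processing notes TopHat2 and mm10 were used. The counting program, its annotation and its use of strand or of multi-mapped reads: not given in the sources used here. Counts were scaled by TMM and filtered with filterByExpr, and edgeR 4.0.16 (R 4.3.3) gave robust quasi-likelihood F tests with 2 residual degrees of freedom and Benjamini-Hochberg adjustment over all genes tested (threshold 0.05). A standard error is the log2 fold change divided by the square root of F. Counting intervals are exact Poisson at 95% and, like the floor of 3 counts, cover counting error only. Alternatives were other scalings and filters, leaving out each DMSO library, library sizes without Rn45s, DESeq2 1.42.0, and a coefficient of variation of 20% assumed in edgeR's likelihood ratio test. The tests were tried on simulated counts. Positions, overlaps and lengths are from GENCODE M21 (GRCm38). Members and lists were chosen with earlier results of these data known. All 10 members were named, genes that overlap them, and from each other list at most 3 genes, those of greatest absolute log2 fold change among the calls; any other is said to be chosen after its values were seen. Plaat3, Prxl2b and Cyp2c23 were matched from older symbols through RefSeq synonyms.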

Additional observations from a re-analysis of the deposited data

How the results depend on the processing

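No paired analysis was possible because the 3 rotenone files are 1 library, so the replicate numbers shared by the groups pair nothing. Assuming a coefficient of variation of 20% left 1408 genes higher and 2063 lower over all genes (4054 and 4197 as reported), 3 of the 10 genes higher (6 as reported) and 13 genes of the pathway lists lower (30 as reported). Scaling by library size only turned the log2 fold change of Pla2g15 to -0.055 (0.07 as reported; neither passed). Each of the calls for Pla2g4a, Pla2g4b, Ptgs1 and Ptgis kept its direction and stayed past the threshold under 11 of 11 alternatives, with log2 fold changes of 1.00 to 1.14, -1.39 to -1.25, 1.32 to 1.53 and 1.06 to 1.35. Ptgs2 and Ptges passed under none of them (lowest adjusted p 0.248 and 0.104). Leaving out 1 DMSO library at a time changed no call among the 10 genes. Depth limits Ptgs2 (34 to 38 counts) and Ptges most.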

Other observations

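Genes that share a name or a locus with the prostaglandin genes were also listed, and those given here were named after their values were seen. Ptges3l, a gene related to Ptges3, had 196, 230 and 172 counts in DMSO and 130 with rotenone, and its log2 fold change of -0.13 ± 0.22 did not pass (edgeR adjusted p = 0.635). The antisense transcript Ptgs2os2 had 5, 2 and 16 counts in DMSO and 0 with rotenone and did not pass (edgeR adjusted p = 0.114).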
